A study of Arabidopsis thaliana with 4 samples.

Results

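Transcripts of 8 genes of the circadian clock were followed in rosette leaves of Arabidopsis thaliana, in wild-type plants and in a line in which the alternative oxidase gene AOX1a is targeted by antisense RNA. The 8 genes were chosen by name, as CCA1, LHY, PRR9, PRR7, PRR5, GI, TOC1 and GRP7 (also called CCR2), each read by 1 named probe set of 22810 on the Affymetrix ATH1 array. The antisense line, AS12, was made in the accession Col-0, and its antisense sequence to AOX1a (At3g22370) is driven in all tissues by the viral promoter 35S CaMV. AOX1a encodes a mitochondrial enzyme that bypasses part of the respiratory chain. AS12 is a single transformed line, so that an effect of the construct and one of its place of insertion cannot be told apart, and the labels call the controls only wild type, without an accession. AOX1a itself and markers of the labelled tissue are not analysed here, since only the 8 clock probe sets could be given gene names. Neither the antisense effect nor the tissue label could therefore be checked.

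Both genotypes grew in unfertilised soil-less mix with days of 14 h at 23 °C and 350 µmol photons (PAR, per square metre and second), and were sampled at an age of 21 days. For all 4 pools, rosette leaves of the third or the fourth pair were cut in one window, from 11:30 in the morning to noon. The labels give no harvest time for a single pool and no clock time at which the lights came on. Each array holds RNA of 1 pool: 7 plants in wild type 1, 9 in wild type 2, 9 in antisense 1 and 8 in antisense 2. With 2 pools per genotype, p-values rest on the spread between these pools and on spread borrowed from other probe sets. In pooled leaf RNA, fewer cells that hold a transcript and less transcript per cell cannot be told apart.

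The plant clock is a loop of repressors that are made at successive times of day. CCA1 and LHY are a pair of closely related MYB-like DNA-binding proteins that accumulate around dawn and repress evening genes, often through a promoter motif called the evening element. The pseudo-response regulators PRR9, PRR7 and PRR5 follow one another from morning to afternoon and repress CCA1 and LHY. TOC1, the founding member of that family, and GI peak late in the day, and GRP7 is an RNA-binding protein whose transcript is a standard output of the clock. Late morning usually lies on the falling side of CCA1 and LHY and on the rising side of the evening genes, so signals at that time can depend on the phase of the clock. Without a time for lights on, the harvest window cannot be placed in hours after dawn.

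The difference between the genotypes ran one way for the dawn-phased and the other way for the evening-phased probe sets, though none passed the test. Both dawn-phased probe sets read lower on the antisense arrays than on the wild-type arrays, PRR9 overlapped, and PRR7, PRR5, GI, TOC1 and GRP7 each read higher on both antisense arrays than on both wild-type arrays. The genotypes thus did not overlap for 7 of 8 members, 5 with antisense higher and 2 with antisense lower, and for 6 of the 7 that were tested. Of the 13648 probe sets tested (those outside the dimmest 40%), 26.8% had genotypes that did not overlap, 10.7% with antisense higher and 16.1% with antisense lower. PRR5 was too dim to be tested. None of the others was called: limma with Benjamini-Hochberg adjustment over all tested probe sets (threshold 0.05) called 0 members with antisense higher and 0 with antisense lower, and it called 0% of all tested probe sets in either direction. At an unadjusted p of 0.05, limma passed 2 members, GI and GRP7, both with antisense higher, and 1.69% of tested probe sets passed in that direction and 1.09% in the other. With no filter 4 members passed at that level, with LHY (unadjusted p 0.046, antisense lower) and PRR5 (unadjusted p 0.014, antisense higher) beside them. LHY also passed under quantile normalization (unadjusted p 0.049), median scaling (unadjusted p 0.047), without antisense 1 and with the crossed arrays as a block, and TOC1 passed with eBayes without a trend. No member is therefore reported as changed, and the intervals below give the precision of each value.

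**Figure D1:**
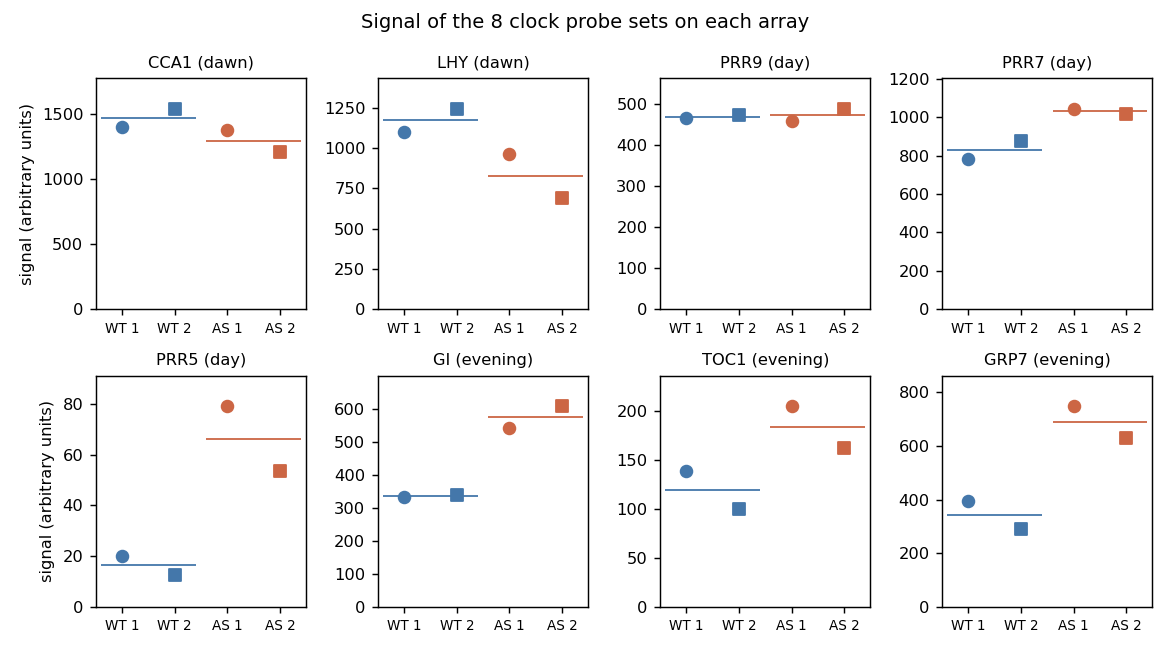
Signal (linear scale from 0, arbitrary units as the authors scaled it) of each of the 8 clock probe sets on the 4 arrays. Blue points are wild type (WT) and orange points the antisense line (AS), circles are arrays numbered 1 and squares arrays numbered 2, and lines are the means of 2 arrays. The words in brackets give the usual time of peak. In 7 panels the blue and orange points do not overlap, and in PRR9 they do.

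Among the dawn-phased repressors, LHY (AT1G01060, probe set 261569_at) read 1102.2 on wild type 1, 1245.6 on wild type 2, 961.6 on antisense 1 and 687.8 on antisense 2. Both antisense arrays lay below both wild-type arrays, and antisense 2 was the lowest. Mean signal was 824.7 ± 194 in the antisense line against 1173.9 ± 101 in the wild type (SD, n = 2). The log2 difference was -0.53 (95% interval -1.08 to 0.03), or 1.44-fold lower. Here and below, a fold between the genotypes' means comes from the log2 difference and not from the ratio of mean signals. By limma the unadjusted p was 0.059 and the adjusted p 0.99995. The size rests in good part on antisense 2: without it the log2 difference was -0.29.

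CCA1 (AT2G46830, 266719_at), the partner of LHY, read 1405.0 and 1545.0 on wild type 1 and 2, and 1380.5 and 1207.1 on antisense 1 and 2. The groups touch: the higher antisense array lay 1.02-fold below the lower wild-type array. The log2 difference was -0.19 (95% interval -0.64 to 0.26), from 1475.0 ± 99.0 in the wild type to 1293.8 ± 123 in the antisense line (SD, n = 2), and 35.6% of tested probe sets had a larger difference in either direction. It was -0.09 without antisense 2. The CCA1 difference was thus within the usual range of these arrays, while 5.83% of tested probe sets had a larger absolute difference than LHY.

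The pseudo-response regulators differed more from gene to gene. PRR9 (AT2G46790), which represses CCA1 and LHY in the morning, read 465.3 and 472.7 in wild type 1 and 2, and 459.7 and 489.3 in antisense 1 and 2. Its antisense arrays enclosed both wild-type arrays, and the log2 difference was 0.02 (95% interval -0.43 to 0.46). Its probe set, 266720_s_at, is of a type that can bind more than one transcript. PRR9 had the narrowest range of all members, 0.09 log2 units over the 4 arrays. The interval still allows a difference of either sign, so equal levels were not shown. PRR9 and CCA1 lie close together on chromosome 2, with 3 annotated genes between them in the RefSeq annotation of TAIR10.1.

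PRR7 (AT5G02810, 250971_at), which acts after PRR9, read 779.5 and 873.1 on the wild-type arrays and 1044.7 and 1018.7 on the antisense arrays. Both antisense arrays were higher, the nearer of them 1.17-fold above wild type 2. Means were 826.3 ± 66.2 and 1031.7 ± 18.4 (SD, n = 2), and the log2 difference was 0.32 (95% interval -0.12 to 0.77, limma unadjusted p 0.13, adjusted p 0.99995).

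PRR5 (AT5G24470, 249741_at), the afternoon member of the family, had the dimmest signal. It read 19.9 and 12.7 on wild type 1 and 2 and 79.1 and 53.6 on antisense 1 and 2. All 4 values lie under the level of the filter, a mean log2 value equal to a signal of 97.4, so PRR5 was not tested. Means were 16.3 ± 5.09 in the wild type and 66.35 ± 18.0 in the antisense line (SD, n = 2). Detection calls were not used, so it is not shown that the wild-type signals were above background, and no fold is given. Both antisense arrays lay above both wild-type arrays. The log2 difference of 2.03 depends on how low values are treated: with an offset added before the log it was 1.60. With no filter limma gave PRR5 an unadjusted p of 0.014 and an adjusted p of 1.0.

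The evening-phased members gave the largest differences among those tested. GRP7 (AT2G21660, 263548_at), the clock-driven RNA-binding protein, read 394.4 on wild type 1, 290.2 on wild type 2, 748.1 on antisense 1 and 631.0 on antisense 2. The lower antisense array was 1.60-fold above the higher wild-type array. The antisense mean was 689.55 ± 82.8 and the wild-type mean 342.3 ± 73.7 (SD, n = 2). On the log2 scale the antisense line lay 1.02 above the wild type (95% interval 0.46 to 1.58), or 2.03-fold higher. By limma the unadjusted p of GRP7 was 0.0040 and its adjusted p 0.99995. Its difference stood at rank 127 from the highest of the 13648 tested.

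GI (AT1G22770, 264211_at), which links the clock to flowering and, through the F-box protein ZTL, to the stability of TOC1, was the steadiest of the 3 within a genotype. It read 334.1 and 340.2 on the wild-type arrays, and 543.1 and 607.8 on the antisense arrays. Means were 337.15 ± 4.31 and 575.45 ± 45.7 (SD, n = 2), the antisense line being 1.70-fold higher. This is 0.77 on the log2 scale (95% interval 0.31 to 1.22, limma unadjusted p 0.0058, adjusted p 0.99995). The gap between the groups was 1.60-fold, and 2.20% of tested probe sets had a larger absolute difference.

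TOC1 (AT5G61380, 247525_at), which closes the loop by repressing CCA1 and LHY, read 138.7 and 99.6 on the wild-type arrays and 204.6 and 161.5 on the antisense arrays. Antisense 2 was 1.16-fold above wild type 1. Means were 119.15 ± 27.6 and 183.05 ± 30.5 (SD, n = 2), the antisense line being 1.55-fold higher, or 0.63 on the log2 scale (95% interval -0.07 to 1.33, limma unadjusted p 0.070, adjusted p 0.99995). Leaving out wild type 2 gave a log2 difference of 0.39. Among the 7 tested members, 2, GI and GRP7, had every antisense array apart from every wild-type array by 1.5-fold or more. Among tested probe sets 0.528% were that far apart with antisense higher and 0.176% with antisense lower.

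**Figure D2:**
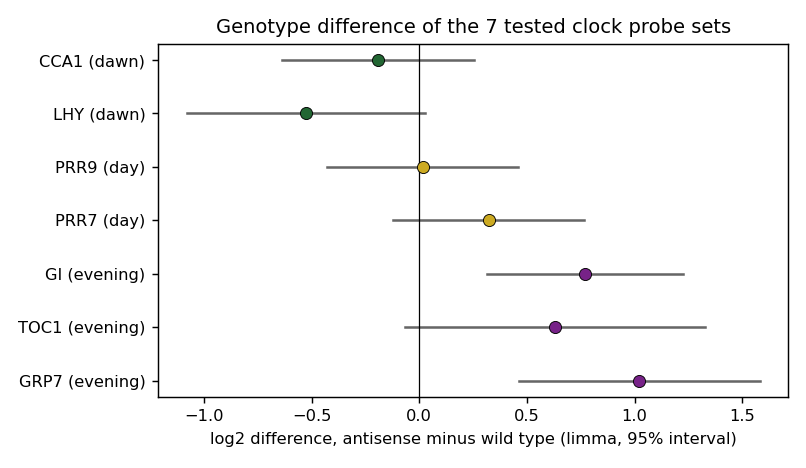
Log2 difference (antisense minus wild type, x axis) of the 7 tested clock probe sets with the 95% interval of limma as a line. Green points are dawn-phased, yellow day-phased and purple evening-phased genes. The intervals of GI (0.31 to 1.22) and GRP7 (0.46 to 1.58) lie above 0, and the other 5 include 0; the intervals are not adjusted for the number of probe sets.

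Because all these arrays are set to one average level, the evening and dawn members were also compared within each array, where scaling cancels. The mean log2 signal of GI, TOC1 and GRP7 minus that of CCA1 and LHY was -2.24 on wild type 1, -2.69 on wild type 2, -1.40 on antisense 1 and -1.20 on antisense 2. The level of this quantity has no meaning of its own, since probe sets differ in brightness, but it can be compared between arrays. Both antisense arrays lay above both wild-type arrays, by at least 0.84, and the means differed by 1.17 log2 units, a 2.24-fold difference in the ratio. For single genes the same held: GI minus LHY differed by 1.30 and GRP7 minus CCA1 by 1.21 log2 units between the genotypes. Between the dawn members, LHY minus CCA1 was -0.35 and -0.31 on the wild-type arrays and -0.52 and -0.81 on the antisense arrays. These contrasts were chosen with the members' values known and carry no test. GI, TOC1 and GRP7 each read higher, and CCA1 and LHY each lower, on both antisense arrays than on both wild-type arrays. That the evening-minus-dawn contrasts separate the genotypes was therefore fixed and is no further result.

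**Figure D3:**
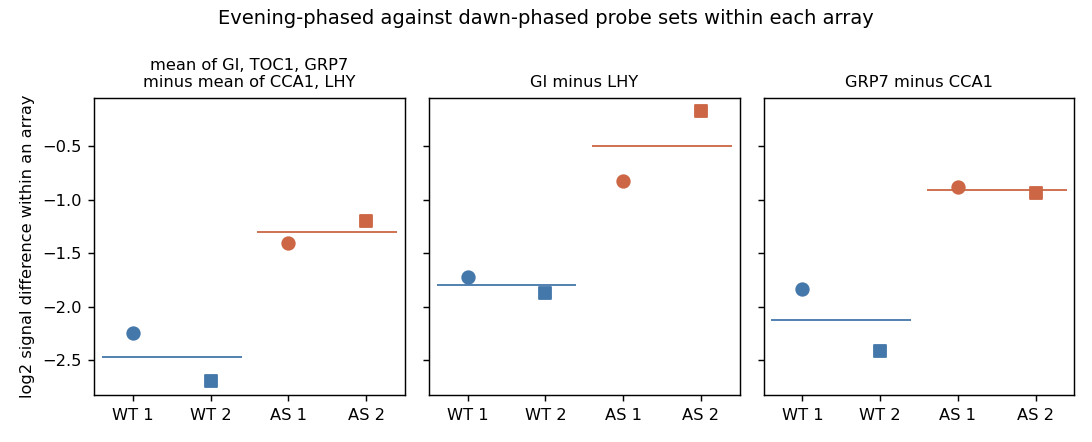
Difference of log2 signals within an array (y axis, log2 units) for evening-phased minus dawn-phased probe sets, on the 4 arrays. Blue points are wild type (WT) and orange points antisense (AS), circles number 1 and squares number 2, and lines are means of 2 arrays. In each panel both antisense arrays lie above both wild-type arrays, in the left panel at -1.40 and -1.20 against -2.24 and -2.69. This order was fixed by the separation of the single members.

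The 4 arrays as a whole fall apart in another way than by genotype: wild type 1 and antisense 2 stand together against wild type 2 and antisense 1. In the labels the number of plants pooled follows this split, with 7 and 8 plants against 9 and 9. Some signs of RNA quality, given below, also follow the split. The split was noticed in these data and is therefore described without a test. Of all tested probe sets, 49.8% had pools of fewer than 9 plants that did not overlap with the pools of 9. Of the 8 clock members, 0 did. Each member was already separated by genotype or, for PRR9, by array number. A probe set can separate 4 arrays in only 1 of these ways, so the count of 0 was fixed and is no further result. The log2 difference between fewer than 9 and 9 plants was -0.33 for LHY, -0.17 for CCA1 and -0.10 for PRR7, and between 0.03 and 0.10 for the other five. For GI and TOC1 it was 0.07 each, and 82.3% and 82.2% of tested probe sets had a larger one. The median absolute difference of the 7 tested members was 0.10 on this split against 0.21 for all tested probe sets. Between the genotypes it was 0.53 against 0.13. A probe set whose genotypes do not overlap always differs less on this split than between the genotypes. The lower median of the members on this split was thus largely fixed and is no further result. PRR5, which was not tested, differed by 0.04 on this split.

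**Figure D4:**
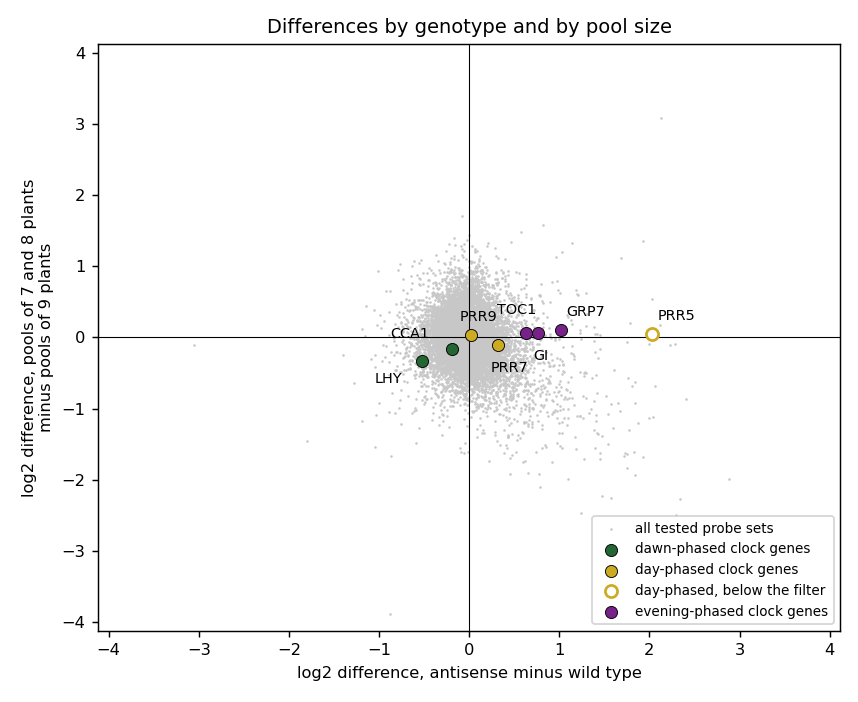
Log2 difference between the genotypes (x axis) against the log2 difference between pools of 7 and 8 plants and pools of 9 (y axis) for all tested probe sets (grey) and the 8 clock members (coloured by usual time of peak; the open circle, PRR5, is below the filter). The tested clock members lie from -0.53 for LHY to 1.02 for GRP7 on the x axis, PRR5 lies at 2.03 on dim signals that fix its place poorly, and all 8 stay between -0.33 and 0.10 on the y axis.

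Through the late morning, transcripts of dawn and of evening genes usually move in opposite directions, so that the pair can serve as a reading of the time of harvest. In the pools of fewer plants LHY and CCA1 lay 0.33 and 0.17 log2 units lower on average, and lower within each genotype. GI, TOC1 and GRP7 lay 0.07 to 0.10 higher on average, but none of these was higher within both genotypes. TOC1 was 0.48 higher there in the wild type and 0.34 lower in the antisense line, and GRP7 0.44 higher and 0.25 lower. GI was 0.03 lower and 0.16 higher. The evening-minus-dawn quantity was 0.33 higher in the pools of fewer plants, with arrays that overlap. The same quantity differed by 1.17 between the genotypes, and that this was the larger difference was fixed, since the quantity separates the genotypes. Since the labels give one harvest window for all pools, a difference in time of harvest within it, a difference in clock phase and one in the level of these transcripts cannot be told apart from single samples taken at one time.

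Within the genotypes, the arrays numbered 1 and 2 also differed for some members. TOC1 was lower on number 2 by 0.48 log2 units in the wild type and by 0.34 in the antisense line. GRP7 was lower there by 0.44 and 0.25, and the dim signal of PRR5 was also lower on number 2 in both genotypes. Such a shift, number 2 lower in both genotypes, was seen in 16.8% of tested probe sets. GI shifted by 0.03 and 0.16 the other way, and LHY and CCA1 read higher on number 2 in the wild type and lower on number 2 in the antisense line. Only PRR9, of all 8 members, was separated by the numbers, with 23.3% of tested probe sets. The other members separate the genotypes and so could not also separate the numbers, and this count is no further result. For TOC1 the difference between the numbers within a genotype was 0.41 log2 units on average, beside 0.63 between the genotypes.

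Profiles over the 4 arrays were compared by the Euclidean distance between mean-centred log2 values. It depends on the size of the differences as well as on their shape. The distance was 0.40 for TOC1 and GRP7 and 0.39 for LHY and CCA1. The smallest distance of all pairs was that of PRR9 and CCA1, at 0.30, both of which varied little. Their shapes differed: antisense 2 was the highest array for PRR9 and the lowest for CCA1. Among tested members the largest distance was that of LHY and GRP7, at 1.62. Of the other tested probe sets, the one nearest to PRR5, whose profile rests on dim signals, was 265478_at, at 0.36, which read 187.0 and 159.9 on the wild-type and 944.3 and 691.0 on the antisense arrays. The one nearest to GRP7 was 248914_at, at 0.17, with 409.4 and 337.6 against 771.4 and 626.2. For TOC1 the nearest lay at 0.07, closer than any clock member. Their genes are not named in the sources used here. With 4 arrays, many probe sets can share a profile.

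As a sign of RNA quality, 6 ratios of 3' to 5' signal of control transcripts were computed. The second GAPDH design was higher in the antisense line, as were PRR7, PRR5, GI, TOC1 and GRP7, at 1.17 and 1.28 against 1.08 and 1.12. The other 5 ratios did not separate the genotypes. Some of them separated wild type 1 and antisense 2 from wild type 2 and antisense 1, as the plants pooled do. In that order, the first ubiquitin design gave 4.68 and 3.82 against 3.16 and 3.45. The second ubiquitin design gave 2.31 and 2.25 against 2.14 and 2.17. The second actin design gave 3.39 and 3.37 against 2.96 and 3.31. The first actin and first GAPDH designs separated the array numbers instead. The part of RNA quality in the clock values and in that split was not tested.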

How the data were processed

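Leaf RNA of 4 pools was hybridised to 4 arrays, 2 per genotype. Per the labels' descriptions, the authors took signal intensity from Affymetrix MicroArray Suite 5.0. The deposited intensity values are linear and already scaled, with a mean of 500.05 on every array once 2% of values at either end are trimmed, and were not scaled again. Detection calls were not used. Values were log2-transformed, 64 control probe sets and the 40% with the lowest mean log2 value were left out, and 13648 were tested with limma 3.58.1 in R 4.3.3 (lmFit, eBayes with an intensity trend, Benjamini-Hochberg adjustment, threshold 0.05). An exact permutation test is not used, because its smallest two-sided p for 2 against 2 arrays is 0.333. The number of arrays limits precision: the 95% interval reached 0.55 log2 units to either side in the median of all tested probe sets.

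Probe sets were named only by the rule that chose the 8 members, whose loci and symbols match RefSeq's table for all 8. No table used here names other probe sets, so 51 further clock, output and photoreceptor genes listed for this work, and tissue markers, are not analysed here, and no sequences are shown. The rule for named genes was the 8 members and, for those with the widest range, their nearest other probe sets, limited to 2 identifiers as these are unnamed. The members, lists and tests were chosen with earlier results of these data known. Array numbers 1 and 2 occur in both genotypes, nothing in the labels ties equal numbers, and deviations of same-numbered arrays correlated at -0.42 across tested probe sets, so numbers were not treated as pairs. Alternatives were a replicate block, 3 normalizations, a log offset, other filters, other variance models, leaving out probe sets of several transcripts, a threshold of 0.1, leaving out each array and, added after seeing the data, a crossed block.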

Additional observations from a re-analysis of the deposited data

How the results depend on the processing

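Under all 16 alternatives limma called 0 clock members higher and 0 lower, the crossed block included. Apart from PRR9, the members kept the sign of their log2 difference under every alternative that gave one; PRR9 ran from -0.029 without antisense 2 to 0.061 without antisense 1. With an array left out the sign of a member whose groups do not overlap is fixed, so it is no support there. The blocks, filters, variance models, threshold and leaving out probe sets of several transcripts cannot change a log2 difference. Signs kept under them are no support either. For members whose groups do not overlap, only the normalizations and the log offset could have changed the sign. Leaving out each array gave log2 differences of 0.80 to 1.24 for GRP7, 0.69 to 0.85 for GI, 0.39 to 0.87 for TOC1, 0.24 to 0.40 for PRR7, -0.77 to -0.29 for LHY and -0.29 to -0.09 for CCA1. Adjusted p-values by limma over the alternatives went down to 0.15 for GRP7, 0.19 for GI and 0.39 for LHY and up to 1.0. These low values all came from the crossed block, which was added after seeing the data. Among the other alternatives on all 4 arrays the lowest adjusted p by limma for these members was 0.9998, with the log offset. At an unadjusted p of 0.05 limma passed 2 to 4 members over the alternatives, GI and GRP7 under each. Normalization moved the median of all probe sets by at most 0.03. Counted over the whole array, 0 were called in either direction; the replicate block also gave 0 and 0, and same-numbered arrays share only a number. Lower calls numbered 1 under quantile, median and cyclic loess scaling, the offset (with 1 higher), with _s_at and _x_at probe sets left out and at a threshold of 0.1, and without single arrays there were 0 to 11 higher and 0 to 2 lower. Without 1 array the lone array of a genotype is assumed to vary like the others. The crossed block, wild type 1 with antisense 2, called 42 higher and 2 lower. The cause of these shifts was not tested. Low signal limits PRR5, which was tested only without the filter.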
